A study of Mus musculus with 8 samples.

Results

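The surface markers that define preadipocytes and other stromal cells of fat were examined as a set of 10 genes: Pdgfra, Pdgfrb, Cd34, Ly6a, Thy1, Dpp4, Anpep, Icam1, Vcam1 and Eng. Every probe set whose annotation gave exactly 1 symbol, that of a member, was taken. This gave 18 probe sets for 9 genes among the 45101 probe sets of the array; no probe set carried the symbol Ly6a alone, so Ly6a has no value here. The cells were subcutaneous preadipocytes of newborn C57BL/6 mice, taken at day 2, and all of them were of the genotype Dicer lox/lox. The 4 Dicer knockout samples received the adenovirus Ad5CMVCre-eGFP, which carries Cre recombinase and GFP and by its name uses the CMV promoter, and the 4 control samples received Ad5CMVeGFP, which carries GFP alone. Both viruses were given at 750 MOI with 4 µg/mL polybrene, and RNA was taken after 4 days, 1 array per sample. Cre was not tested in cells without floxed alleles, so Cre and the loss of Dicer cannot be told apart. The labels call the samples biological replicates, numbered 1 to 4 in each group, without naming animals or cultures, so a p-value here weighs a difference only against the spread among these samples, which may in part be technical.

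Preadipocytes are fibroblast-like precursors that keep the capacity to become fat cells, and no single surface protein identifies them. In sorting experiments on adipose tissue they are recognised by a combination of PDGF receptors, CD34, SCA-1 (the product of Ly6a) and THY1, without the markers of blood and vessel cells. Within this compartment, mouse work separates an interstitial DPP4+ progenitor from a more committed ICAM1+ preadipocyte. Dicer cuts microRNA precursors to their mature form, and mature microRNAs in turn lower the messengers that they pair with through their seed. Several markers described here have documented microRNA regulators, among them miR-126 for VCAM1 in endothelial cells and miR-221 and miR-222 for ICAM1 in human cells.

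Those microRNAs are shown because the reports above, from endothelial or human cells, name them as regulators of markers measured here. Whether they act on these markers in mouse preadipocytes was not tested, and no target sites were searched for. The sequences are RefSeq's for mouse (GRCm38.p6), 5′ to 3′, with the seed (bases 2 to 8) in capitals. Mature microRNA levels were not analysed here.
mmu-miR-126a-3p: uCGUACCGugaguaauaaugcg
mmu-miR-221-3p: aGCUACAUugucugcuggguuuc
mmu-miR-222-3p: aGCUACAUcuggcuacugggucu
The last 2 share their seed, and the first has another.

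Promoters are shown for Anpep and Icam1, the members with the most negative difference between the groups and with the smallest exact permutation p. Each is the 250 bases before the gene's start in RefSeq (GRCm38.p6), written along the gene's strand. Of the 10 members, 6 had a promoter in that table. Capitals mark matches, on either strand, to 4 motifs: GGAAATTCC, a κB-type site bound by NF-κB, TTCNNNGAA, the GAS-type site bound by STAT factors, the GC box GGGCGG and the TATA box TATAAA.
Anpep, chr7:79848211-79848460, minus strand: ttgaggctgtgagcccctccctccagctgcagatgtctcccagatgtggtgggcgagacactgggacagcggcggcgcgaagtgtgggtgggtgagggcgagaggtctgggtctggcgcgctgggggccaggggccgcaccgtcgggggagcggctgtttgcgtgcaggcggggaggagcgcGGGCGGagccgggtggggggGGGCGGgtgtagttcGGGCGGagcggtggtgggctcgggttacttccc
Icam1, chr9:21015690-21015939, plus strand: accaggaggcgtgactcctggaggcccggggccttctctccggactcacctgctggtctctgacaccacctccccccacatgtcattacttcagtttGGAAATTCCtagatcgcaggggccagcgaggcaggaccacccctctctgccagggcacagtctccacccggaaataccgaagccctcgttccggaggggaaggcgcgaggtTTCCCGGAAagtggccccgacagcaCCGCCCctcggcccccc
The Icam1 window held GGAAATTCC from base 153 to base 145 before the start, a motif found in 0.286% of 32851 such windows. It also held TTCNNNGAA at bases 42 to 34 (7.02% of windows; the motif reads the same on both strands) and 1 GC box on the minus strand (32.7%). The Anpep window held 3 GC boxes and no match to the other motifs (TATAAA is in 12.4% of windows). No 2 of the matches in these windows overlap. Such a match is a description of the letters and not evidence of a site.

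Each array gave a scaled linear signal per probe set, and the number of arrays limits the precision. For tests, 73.1 (the 20th percentile of the values on all arrays) was added to each signal before log2, and 27026 probe sets in the upper 60% by mean level were fitted with limma. The median signal lay between 321.1 and 418.9 on the 8 arrays. The 2 Dicer1 probe sets had log2 differences of -0.15 (SE 0.20) and -0.26 (SE 0.27), knockout minus control (adjusted p = 0.999 by limma for each); their place relative to the floxed segment is not known here. In this unpaired fit the single call of the whole array was the Hmga2 probe set 1450781_at (log2 difference 1.37, SE 0.16, limma adjusted p = 0.0335). Hmga2 1450780_s_at had 1.06 (SE 0.16, limma adjusted p = 0.283) and 1422851_at 0.86 (SE 0.23, limma adjusted p = 0.999). Hmga2 1446196_at was not tested. Same-numbered knockout and control arrays deviated together, so a second fit that blocks on the replicate number, the paired fit, is given beside the unpaired one. It called 13 probe sets, among them Hmga2 1450781_at and 1450780_s_at (limma paired adjusted p = 0.0076 and 0.0336). Arrays numbered 2 and 4 also stood apart from those numbered 1 and 3 in both groups: the 5′ probe set for 18S rRNA gave 30583.9 to 43029.9 on the even-numbered arrays and 5905.9 to 14007.2 on the odd-numbered ones.

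The markers that the label of the cells calls for were in the tested range, apart from Dpp4 and Ly6a. Dpp4 was dim by 3 of its 4 probe sets and scattered by the other, and Ly6a could not be read. A place in that range does not by itself identify the cells. All 14 listed fibroblast and mesenchymal genes, such as Col1a1, Dcn and Vim, were in the tested set, and their summed signal was 608200 to 709620 on knockout arrays and 605020 to 734000 on control arrays. Endothelial cells and leukocytes also bear CD34, ICAM1, VCAM1, endoglin or CD13, so their own markers were read on the same arrays. Of 11 endothelial genes 6 were in the tested set, with summed signals of 2869.4 to 3660.6 on knockout and 2234.0 to 3923.0 on control arrays. The VEGF receptor gene Kdr read 810.8 to 1257.4 and the angiopoietin receptor gene Tek 348.3 to 945.5, and Cldn5, Flt1, Esam and Emcn were tested too. Vwf, Tie1 and Erg lay below 73.1 on all 8 arrays, and Cdh5 (16.0 to 294.3) and Pecam1 (43.2 to 210.1) were below the tested range. Of 11 macrophage and leukocyte genes 8 were in the tested set, with sums of 5129.6 to 5616.6 and 4522.8 to 5814.2 in the same order. Cd68 read 724.3 to 1749.8, Laptm5 669.6 to 1173.6, Csf1r 671.5 to 1065.2 and Cd14 617.5 to 948.5, whereas Itgam lay at 5.3 to 16.4 and Ptprc, the pan-leukocyte gene, at 8.5 to 138.4. Some markers of these cell types, such as Kdr and Cd68, were thus read above the array medians of 321.1 to 418.9, while Pecam1 and Ptprc lay below them. Each gene was read by its brightest probe set, and 73.1 is an added constant and not a limit of detection. Whether these signals come from such cells, and their part in the levels of the surface markers, was not tested. Of 10 pericyte and mural genes 5 were in the tested set, and the summed signal was 7434.3 to 7995.6 on knockout and 5879.2 to 8464.0 on control arrays. Notch3 read 2163.6 to 3866.9, Cspg4 1277.1 to 1998.4 and Des 925.2 to 2012.6, while Kcnj8 (14.8 to 146.1) and Abcc9 (71.7 to 172.8) were below the tested range.

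None of the 9 marker lists had a member past the threshold in either fit. The exact two-sided permutation p of their summed signals, 4 arrays against 4, ran from 0.0857 (keratinocyte and epithelial genes, 3816.9 to 4574.7 on knockout and 2814.3 to 3972.1 on control arrays) to 0.943 (endothelial genes) before adjustment, and the smallest was 0.771 after Benjamini-Hochberg adjustment over the 9 lists. This exact test can give no p below 0.0286, so 1 list alone could not have passed 0.05 after adjustment. The adjusted values thus do not show that cell make-up was alike. The other lists gave 0.257 for adipocytes, 0.371 for mural cells, 0.171 for skeletal muscle, 0.571 for Schwann and neural cells, 0.771 for mesothelium and 0.657 for fibroblasts, with leukocytes inside this range. A summed signal mostly follows the brightest genes of its list. Examples are Pmp22 (12116 to 19446) among Schwann and neural genes and Fabp4 (1877.4 to 6206.2) among adipocyte genes. By tested genes, 5 of 5 skeletal muscle genes had a difference above 0 (median log2 difference 0.532, the highest of the 20 lists examined), 6 of 6 keratinocyte and epithelial genes (0.217), 5 of 8 leukocyte genes (0.177), 5 of 6 endothelial genes (0.0749) and 4 of 5 mural genes (0.0537). Medians were below 0 for Schwann and neural genes (0 of 7 above 0, -0.147), adipocyte genes (1 of 4, -0.134), mesothelial genes (1 of 2, -0.112) and fibroblast genes (4 of 14, -0.0249). With single arrays or pairs left out, the endothelial (-0.0605 to 0.182) and mural (-0.0267 to 0.151) medians changed direction. So did the mesothelial (-0.386 to 0.16), fibroblast (-0.0846 to 0.00847) and Schwann and neural (-0.195 to 0.00235) ones. Those of the other marker lists did not. The endothelial median was 0.426 in odd-numbered and -0.255 in even-numbered pairs. Among the upper 40% of probe sets the leukocyte median was -0.0797 and the skeletal muscle median 0.279. The keratinocyte and epithelial median was 0.417 there and the mesothelial one 0.168. Of 10 skeletal muscle genes 5 were in the tested set, and Des, the brightest of them, had a difference of 0.0255 (SE 0.23).

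Between knockout and control cells, no surface marker changed past the threshold. Of the 14 member probe sets in the tested range, which stand for 8 genes, 0 passed an adjusted p of 0.05 in the unpaired fit (limma; 0.0037% of all tested probe sets passed) and 0 in the paired fit (0.0481%). At an unadjusted p under 0.05 the counts were 0 of 14 unpaired (3.77% of all tested) and 7 of 14 paired (9.14% of all tested). Of those 7, 3 had negative differences (4.47% of all tested), namely the 2 probe sets of Pdgfrb and that of Anpep, and 4 had positive ones (4.67%), namely those of Thy1, Icam1 and Eng (2). Probe sets of 1 gene are not separate evidence. In 0 of 14 did the knockout and control arrays fail to overlap (2.46% of all tested). The median log2 difference over the 8 genes was 0.0595, with 5 of 8 above 0, against -0.00201 over all 13259 tested genes. Without control array 3 the median over the 8 genes was -0.0281, in the opposite direction.

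**Figure D1:**
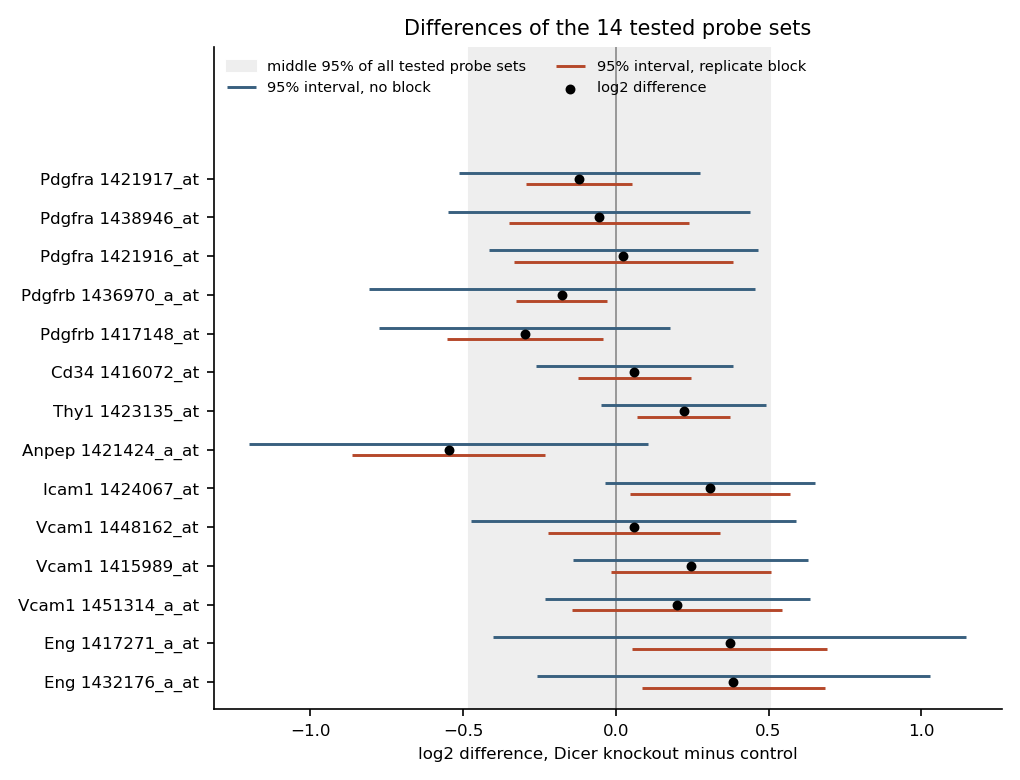
Log2 difference (horizontal axis), Dicer knockout minus control, for each of the 14 tested probe sets, with the 95% interval of the fit without a block (blue, upper line) and with the replicate number as a block (red, lower line); the grey band holds the middle 95% of all tested probe sets. Every blue interval crosses 0, whereas the red intervals of Pdgfrb, Thy1, Anpep, Icam1 and Eng lie to one side of it before adjustment for the number of probe sets.

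Pdgfra and Pdgfrb encode the receptor tyrosine kinases for platelet-derived growth factors. PDGFRα marks fibroblasts and adipocyte precursors broadly, and PDGFRβ marks perivascular and mural precursors as well. Neither transcript changed past the threshold, and for Pdgfrb every knockout array read below its same-numbered control. The brightest Pdgfrb probe set, 1436970_a_at, read 25481.5, 15898.6, 23237.7 and 10786.4 on knockout arrays 1 to 4, against 28599.8, 18677.6, 25787.4 and 12060.7 on control arrays 1 to 4. The groups overlap almost fully, with arrays numbered 4 the dimmest and arrays numbered 1 the brightest in both. Its log2 difference was -0.18 (SE 0.29, 95% interval -0.81 to 0.46, adjusted p = 0.999 by limma). Within pairs 1 to 4 the log2 differences were -0.166, -0.231, -0.15 and -0.16, and the paired fit gave an SE of 0.07 (limma paired adjusted p = 0.458). Without knockout array 4 the unpaired difference was 0.0643, in the opposite direction; this leaves control array 4 without its partner. The other Pdgfrb probe set, 1417148_at, read 4549.7, 3957.4, 3584.4 and 2050.0 in knockouts, against 4615.3, 4106.6, 4951.9 and 3281.8 in controls. It was likewise lower in 4 of 4 pairs, with most of the distance in pairs 3 (-0.458) and 4 (-0.66) and a log2 difference of -0.30 (SE 0.22, adjusted p = 0.999 by limma; paired SE 0.12, paired adjusted p = 0.47). Without knockout array 4 its unpaired difference was -0.0618.

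The 3 Pdgfra probe sets had differences nearer 0, of either sign. The brightest, 1421917_at, read 21994.1, 14855.8, 16444.9 and 11906.1 in knockouts, against 22612.8, 17230.5, 15736.0 and 14573.3 in controls. The ranges overlap, and the log2 difference was -0.12 (SE 0.18, 95% interval -0.51 to 0.27, adjusted p = 0.999 by limma), lower in 3 of 4 pairs. It was 0.00869 without control array 1 and 0.0186 without knockout array 4. For 1438946_at the log2 difference was -0.06 (SE 0.23) and for 1421916_at 0.02 (SE 0.20), and each was higher in 3 of 4 pairs. Their unpaired 95% intervals were -0.55 to 0.44 for 1438946_at and -0.42 to 0.46 for 1421916_at. In the paired fit that of 1421917_at was -0.29 to 0.05. By each probe set, a change within its own interval is not excluded by these arrays.

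Among the genes around these receptors, 14 of 14 listed ligands and signalling partners were in the tested set, and 0 passed as higher and 0 as lower in either fit. Their median log2 difference was -0.0341, with 4 of 14 above 0. Pdgfa, a ligand of PDGFRα, averaged 2492 ± 456.1 in knockouts and 1977 ± 577.6 in controls (SD, n = 4 each; log2 difference 0.35, SE 0.20, adjusted p = 0.999 by limma), and was higher in 4 of 4 pairs. Pdgfd, a ligand of PDGFRβ, averaged 659.0 ± 158.9 in knockouts and 930.1 ± 145.2 in controls (SD, n = 4 each; log2 difference -0.47, SE 0.19, adjusted p = 0.999 by limma), and was lower in 4 of 4 pairs. Pdgfrl, a receptor-like protein without a kinase, had a log2 difference of -0.21 (SE 0.15).

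Cd34 encodes a heavily glycosylated sialomucin of progenitor and endothelial surfaces. Its single probe set, 1416072_at, read 6234.9, 6781.3, 5211.1 and 7006.4 in knockouts, against 6192.3, 5937.2, 4736.0 and 7470.2 in controls. Arrays numbered 3 were lowest and arrays numbered 4 highest in both groups, and the groups overlap. The log2 difference was 0.06 (SE 0.15, 95% interval -0.26 to 0.38, adjusted p = 0.999 by limma), and it turned to -0.0518 without control array 3. Of 6 tested related sialomucins and partners, 0 passed in either direction in either fit (median log2 difference -0.0475, 3 of 6 above 0). Podxl2, a relative of CD34, had the largest size of difference among them at -0.56 (SE 0.25), lower in 4 of 4 pairs. Cd24a, a small mucin-like antigen, and Crkl, an adaptor that binds the tail of CD34, had differences of -0.13 (SE 0.68) and -0.11 (SE 0.14).

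Thy1 encodes CD90, a GPI-anchored immunoglobulin-fold protein of fibroblasts, neurons and T cells that binds integrins. Probe set 1423135_at read 17491.9, 16463.1, 18185.7 and 13237.7 in knockouts, against 15141.8, 13865.1, 14982.1 and 11883.8 in controls. Of the 4 knockout arrays 3 lay above every control array, and the exception was knockout 4, whose partner was the lowest control. The log2 difference was 0.22 (SE 0.12, 95% interval -0.05 to 0.49, adjusted p = 0.999 by limma, exact two-sided permutation p = 0.143, where 0.0286 is the smallest that 4 against 4 arrays can give). The pairs gave 0.207, 0.247, 0.278 and 0.155, the most even set of positive differences among the members (paired SE 0.07, limma paired adjusted p = 0.346). Odd-numbered pairs averaged 0.243 and even-numbered pairs 0.201. Ly6a, whose product SCA-1 is the other GPI-anchored member, could not be read, and its relatives are reported in its place only as a list. Of 9 tested Ly6 family genes 5 had a difference above 0, with a median of 0.179, and 0 passed in either direction in either fit. That median was 0.0032 without knockout array 1 and -0.115 without pair 1. Ly6h, a dim member known from brain, averaged 158.2 ± 73.09 in knockouts and 449.6 ± 117.7 in controls (SD, n = 4 each; log2 difference -1.20, SE 0.30, adjusted p = 0.999 by limma). Its groups did not overlap, as for 2.46% of all tested probe sets. Lypd1 and Ly6i had differences of -1.01 (SE 0.53) and 0.42 (SE 0.35).

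**Figure D2:**
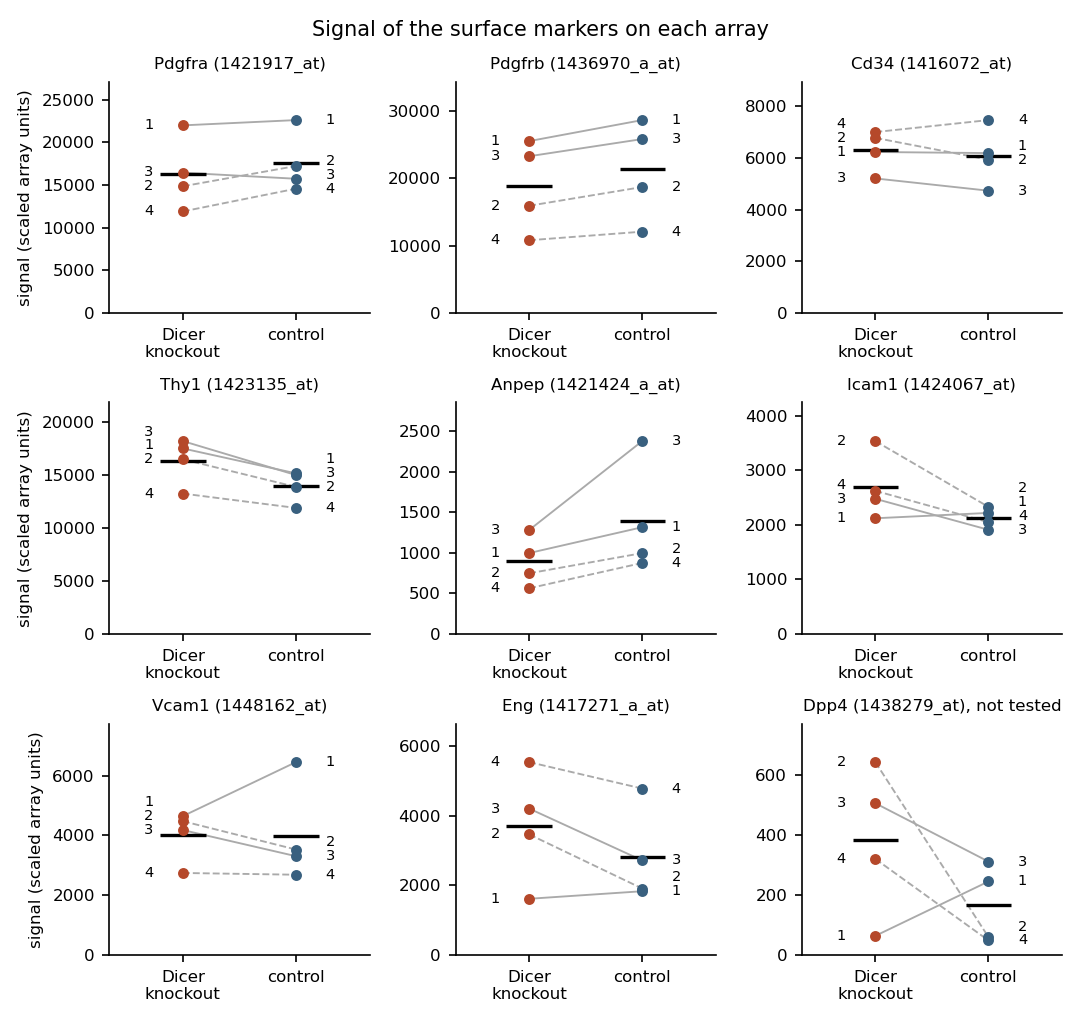
Scaled signal (vertical axes, each from 0) of the brightest tested probe set of each gene, and of the brightest Dpp4 probe set, which was below the tested range; Dicer knockout arrays on the left and control arrays on the right. Numbers are replicate numbers, grey lines join same-numbered arrays (solid for odd, dashed for even), and black bars are group means. The 4 lines of Pdgfrb and of Anpep all run down towards the knockout and the 4 lines of Thy1 all run up, while the groups overlap in every panel.

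Dpp4 and Anpep encode membrane peptidases. DPP4 (CD26) removes dipeptides from the ends of chemokines and incretins and marks interstitial progenitors, and ANPEP (CD13, aminopeptidase N) is carried by fibroblasts and myeloid cells. None of the 4 Dpp4 probe sets entered the tests. The other 3, 1416697_at, 1459973_x_at and 1441342_at, lay between 2.2 and 61.5 on the 8 arrays, below 73.1 on every one. The brightest, 1438279_at, read 63.7, 641.5, 504.7 and 319.5 in knockouts, against 244.5, 59.6, 310.7 and 48.4 in controls. Within each group its values were far apart, and pair 1 ran against the other pairs. Fitted without the filter on low values it had a log2 difference of 0.87 (SE 0.55, adjusted p = 1 by limma; exact two-sided permutation p = 0.171). The 3 dimmer probe sets gave 0.15, -0.13 and 0.21. Adding 73.1 pulls the differences of such low signals towards 0, so they cannot be set against that of the brightest. The scattered values of 1438279_at give no steady Dpp4 level to compare.

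Anpep had the most negative difference of the members. Probe set 1421424_a_at read 997.9, 748.5, 1281.7 and 563.7 in knockouts, against 1316.7, 997.4, 2378.5 and 876.1 in controls. Control 3 was the highest array and knockout 4 the lowest; knockouts 1 and 3 lay within the control range and knockouts 2 and 4 below it. The log2 difference was -0.55, or 0.684 times the control level (SE 0.30, 95% interval -1.20 to 0.11, adjusted p = 0.999 by limma, exact two-sided permutation p = 0.229). Every pair was lower in the knockout, by log2 differences of -0.376, -0.382, -0.856 and -0.576, and the paired fit gave an SE of 0.14 (limma paired adjusted p = 0.23, the smallest among the members). Odd-numbered pairs averaged -0.616 and even-numbered pairs -0.479. Leaving out single arrays or pairs moved the difference between -0.726 and -0.265 without a change of direction. Of 10 other tested membrane peptidases and ectoenzymes, 3 had a difference above 0, with a median of -0.106, and 0 passed in either direction in either fit. The neprilysin gene Mme and Fap, the fibroblast activation protein related to DPP4, had differences of -0.31 (SE 0.28) and -0.24 (SE 0.29), and the phosphatase Alpl one of -0.22 (SE 0.39).

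Icam1 and Vcam1 encode immunoglobulin-superfamily ligands for leukocyte integrins, and both are classic NF-κB targets in endothelium and fibroblasts. Probe set 1424067_at of Icam1, whose promoter is printed above, read 2123.0, 3538.6, 2480.0 and 2626.5 in knockouts, against 2221.1, 2332.2, 1911.5 and 2050.4 in controls. Knockouts 2, 3 and 4 lay above every control array, and knockout 1 lay within the control range. The log2 difference was 0.31, or 1.24-fold (SE 0.16, 95% interval -0.04 to 0.65, adjusted p = 0.999 by limma), with an exact two-sided permutation p of 0.0857, the smallest among the tested probe sets (unadjusted over 14). The pairs gave -0.063, 0.586, 0.363 and 0.346, so odd-numbered pairs averaged 0.15 and even-numbered pairs 0.466. The paired fit gave an SE of 0.12 (limma paired adjusted p = 0.462). Leaving out single arrays or pairs moved the difference between 0.172 (without knockout 2) and 0.432 (paired, without pair 1).

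The 3 Vcam1 probe sets did not run together. The brightest, 1448162_at, read 4647.9, 4478.1, 4181.2 and 2745.3 in knockouts, against 6455.6, 3528.8, 3306.5 and 2686.7 in controls. Control 1 was the highest array and control 4 the lowest, so the knockout values all lay inside the control range. Its log2 difference was 0.06 (SE 0.24, adjusted p = 0.999 by limma) and was below 0 without control array 3 (-0.00442) or 4 (-0.102), or knockout array 1 (-0.0209) or 2 (-0.00328). Probe set 1415989_at read 1874.1, 1657.5, 1139.8 and 1487.1 in knockouts, against 1480.0, 1386.3, 1020.2 and 1232.0 in controls. It was higher in 4 of 4 pairs (0.326, 0.246, 0.15 and 0.258), with overlapping groups and a log2 difference of 0.24 (SE 0.18, adjusted p = 0.999 by limma; paired SE 0.12, paired adjusted p = 0.588). For 1451314_a_at the log2 difference was 0.20 (SE 0.20), and it was higher in 3 of 4 pairs. Pair 1 gave -0.468 by the first of these probe sets and 0.523 by the last, so they differ in sign on the same 2 arrays.

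Of the integrin chains that bind ICAM1, VCAM1 or THY1, 8 were tested and 0 passed in either direction in either fit. The median log2 difference was 0.222, with 7 of 8 above 0; it was 0.0984 without knockout array 3 and 0.073 over the members among the upper 40% of probe sets. The leukocyte chains Itgax, Itgal and Itgb2 had differences of 0.54 (SE 0.40), 0.38 (SE 0.38) and -0.27 (SE 0.32). Of 13 other tested adhesion molecules 8 were above 0, with a median of 0.0486 and 0 called. Madcam1, a ligand of the gut-homing integrin, was lower in 4 of 4 pairs (log2 difference -0.69, SE 0.29), and Icam5 and Alcam had differences of -0.48 (SE 0.29) and -0.33 (SE 0.44). Of 12 tested NF-κB factors, inducers and feedback genes 6 were above 0, with a median of -0.00126, and 0 passed in either direction in either fit. Ccl2, a monocyte chemokine and NF-κB target, averaged 19470 ± 2806 in knockouts and 13080 ± 3839 in controls (SD, n = 4 each; log2 difference 0.60, SE 0.18, adjusted p = 0.999 by limma). Tnfaip3, the feedback inhibitor A20, had a difference of 0.38 (SE 0.16), and Nfkbie, an inhibitor of NF-κB, one of -0.34 (SE 0.33). The Tnfaip3 groups did not overlap, as for 2.46% of all tested probe sets.

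Eng encodes endoglin (CD105), a co-receptor for BMP9, BMP10 and TGF-β that is used as a marker of mesenchymal and endothelial cells. Probe set 1417271_a_at read 1613.3, 3461.6, 4202.1 and 5535.2 in knockouts, against 1830.1, 1907.7, 2713.4 and 4775.0 in controls. The lowest array was knockout 1 and the highest knockout 4, so the control values all lay inside the knockout range. The log2 difference was 0.37, or 1.29-fold (SE 0.36, 95% interval -0.40 to 1.15, adjusted p = 0.999 by limma). The pairs gave -0.174, 0.836, 0.618 and 0.21, and the paired SE was 0.15 (limma paired adjusted p = 0.468). The second probe set, 1432176_a_at, read 705.9, 1166.0, 1565.3 and 1900.4 in knockouts, against 602.9, 807.1, 1276.5 and 1263.1 in controls. It was higher in 4 of 4 pairs (0.205, 0.493, 0.28 and 0.563), with a log2 difference of 0.39 (SE 0.30, adjusted p = 0.999 by limma; paired SE 0.14, paired adjusted p = 0.412). The unpaired difference of the first ran from 0.14 without knockout 4 to 0.717 without knockout 1, and that of the second from 0.188 without control 1 to 0.642 without knockout 1.

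Of 21 tested ligands, receptors, SMAD proteins and readouts around endoglin, 6 had a difference above 0, with a median of -0.0581, and 0 passed in either direction in either fit. Id3, a transcription inhibitor induced by BMP signals, averaged 6827 ± 1704 in knockouts and 10350 ± 2088 in controls (SD, n = 4 each; log2 difference -0.61, SE 0.18, adjusted p = 0.999 by limma). It was lower in 4 of 4 pairs, and the paired fit left it just outside the threshold (limma paired adjusted p = 0.0565). Its relative Id2 had a difference of -0.35 (SE 0.20), and Gdf2, which encodes BMP9, one of 0.56 (SE 0.48).

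**Figure D3:**
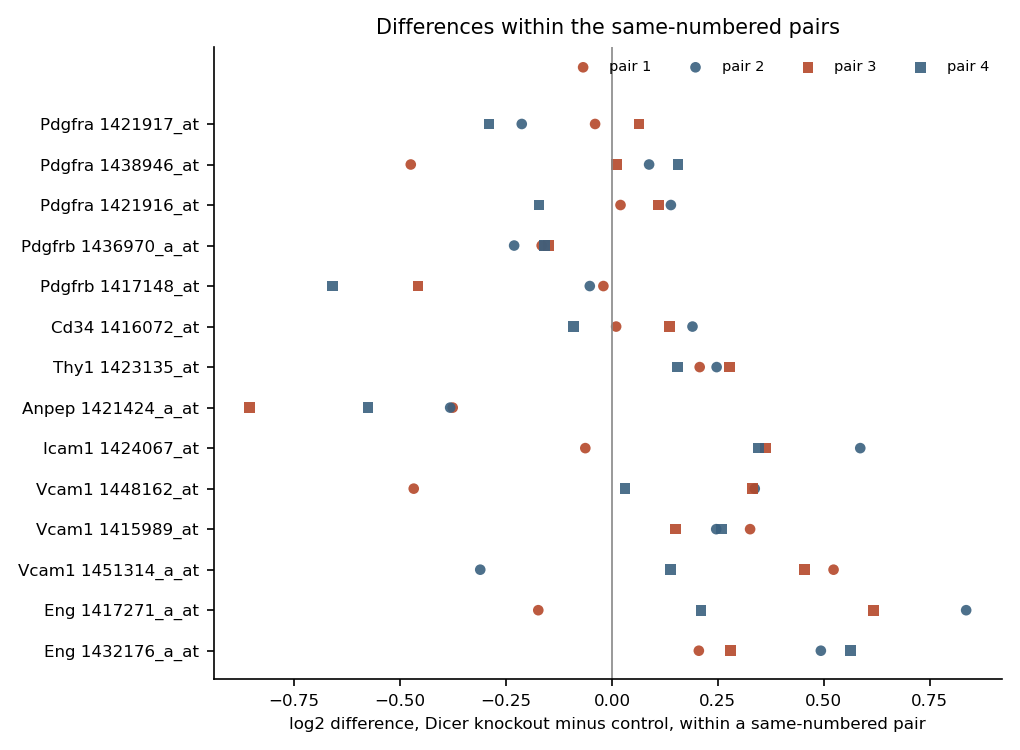
Log2 difference, Dicer knockout minus control, within each same-numbered pair (horizontal axis) for the 14 tested probe sets; red marks odd-numbered and blue marks even-numbered pairs. Both Pdgfrb probe sets and Anpep lie left of 0 in 4 of 4 pairs, and Thy1, Vcam1 1415989_at and Eng 1432176_a_at lie right of 0 in 4 of 4.

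Read within pairs, 6 of the 14 probe sets ran the same way in all 4 pairs, 3 lower and 3 higher in the knockout, where 16.9% of all tested probe sets did so (8.26% lower and 8.61% higher). The paired SE of the 14 probe sets was 0.0684 to 0.164, against 0.124 to 0.356 unpaired, so that much of the spread within a group went with the replicate number. The even-numbered arrays of the brightest Pdgfrb probe set read 10786.4 to 18677.6 and the odd-numbered ones 23237.7 to 28599.8, with no overlap. Anpep read 563.7 to 997.4 on even-numbered and 997.9 to 2378.5 on odd-numbered arrays, and Pdgfra 1438946_at read 1160.5 to 1473.5 and 1634.3 to 2625.6 in the same order. In these 3 of 14 the even-numbered arrays lay wholly below the odd-numbered ones, where 6.93% of all tested probe sets did so and 12.2% showed no overlap in either direction. The labels do not say what a replicate number stands for, and the part of the 18S signal or of cell make-up in this split was not tested. In bulk RNA, fewer cells with a marker and less RNA per cell cannot be told apart.

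**Figure D4:**
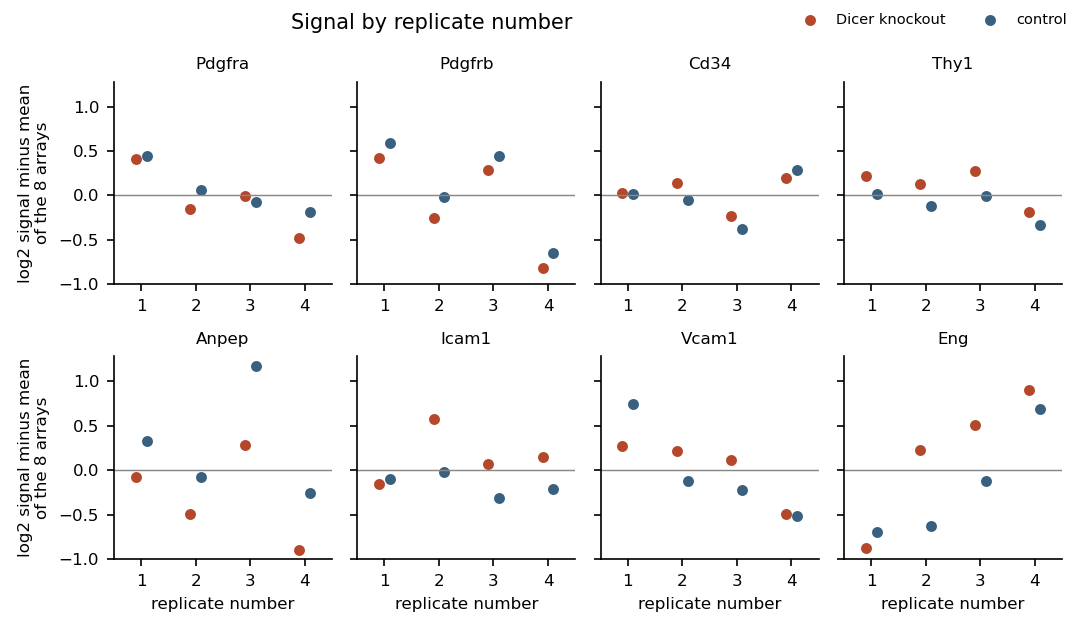
Log2 signal minus its mean over the 8 arrays (vertical axis) against replicate number, for the brightest tested probe set of 8 genes; Dicer knockout arrays in red and control arrays in blue. Same-numbered arrays lie near each other for Pdgfrb, Pdgfra and Cd34, and the Pdgfrb and Anpep values of numbers 2 and 4 lie below those of 1 and 3.

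The lists that describe preadipocyte states held 1 call in all, in the paired fit. Of 10 tested genes of interstitial DPP4+ progenitors, 5 had a difference above 0 (median log2 difference -0.0335) and 0 passed in either direction in either fit. Pi16, a peptidase inhibitor that marks these progenitors, averaged 248.1 ± 123.9 in knockouts and 505.6 ± 308.6 in controls (SD, n = 4 each; log2 difference -0.68, SE 0.52), Opcml, an adhesion protein, had a difference of -0.64 (SE 0.31), and Cd55, a complement regulator, one of 0.45 (SE 0.34). Of 14 tested genes of committed ICAM1+ preadipocytes, which include Icam1 and Pdgfrb, 7 were above 0 (median -0.00956) and 0 passed unpaired. In the paired fit 1 passed as lower and 0 as higher. It was Dlk1, the preadipocyte factor that holds back differentiation (difference of -0.72 on the log2 scale, with an SE of 0.105 and an adjusted p of 0.0436 in the paired limma fit and an SE of 0.365 and an adjusted p of 0.999 in the unpaired one). It was lower in 4 of 4 pairs, and the paired call was lost without pair 2, 3 or 4 (limma paired adjusted p of 0.187, 0.176 and 0.191) and held without pair 1 (0.00515). Fabp4, a lipid carrier of differentiating cells, averaged 4999 ± 2085 in knockouts and 3143 ± 795.4 in controls (SD, n = 4 each; log2 difference 0.55, SE 0.34, adjusted p = 0.999 by limma), and Zfp423, a factor that commits cells to the fat lineage, had a difference of 0.64 (SE 0.38). Of 7 tested genes of adipogenesis regulatory cells, a stromal population described in mouse fat that restrains adipogenesis, 2 were above 0 (median -0.142, but 0.0283 without knockout array 1) and 0 passed in either fit. Igfbp3, Fmo2 and Clec11a had differences of -0.55 (SE 0.48), -0.48 (SE 0.46) and 0.35 (SE 0.16). The Clec11a groups did not overlap, nor did those of Aoc3 among the committed preadipocyte genes (log2 difference -0.38, SE 0.155). Such groups were seen for 2.46% of all tested probe sets.

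**Figure D5:**
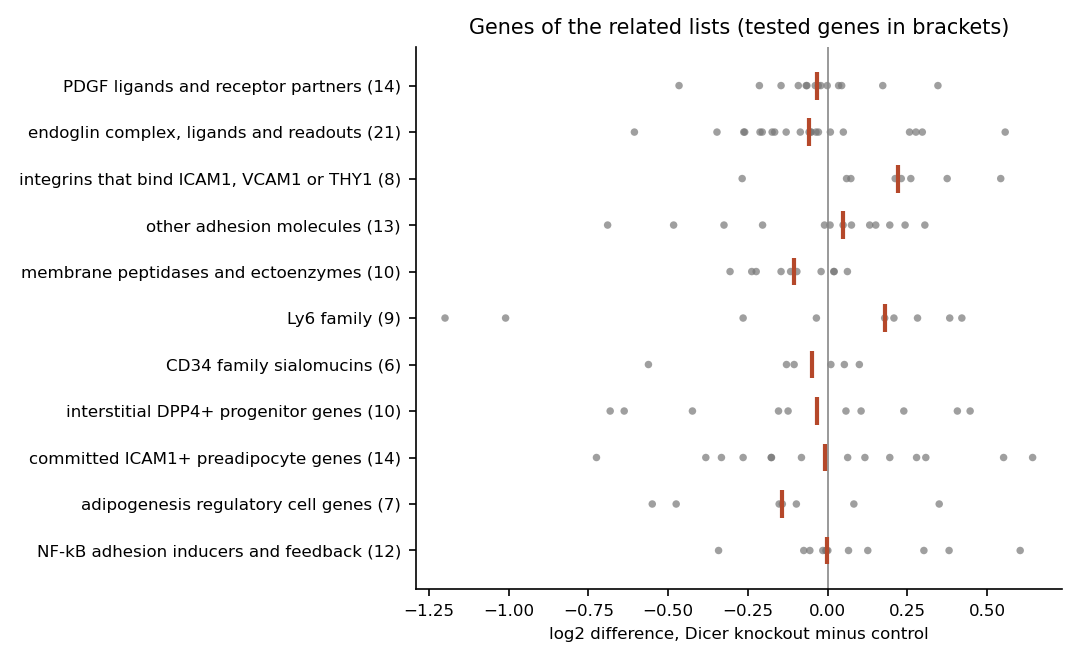
Log2 difference, Dicer knockout minus control (horizontal axis), of every tested gene (grey points) in 11 lists related to the surface markers, with the median of each list as a red bar and the number of tested genes in brackets. The medians lie between -0.142 and 0.222.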

How the data were processed

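Affymetrix arrays of 8 samples, 4 Dicer knockout and 4 control, were processed with GCOS 1.3 and MAS5, per the submitters' processing notes. The deposited values are linear intensity (signal) per probe set, with a 2% trimmed mean of 1500 on every array; further steps by the authors are not given in the sources used here. Here, log2(signal + 73.1) was computed. After 64 array controls had been dropped, 27026 probe sets (the upper 60% by mean) were tested with limma 3.58.1 in R 4.3.3 (lmFit, then eBayes with its trend option; two-sided), and p-values were adjusted over all of them by Benjamini-Hochberg, with a threshold of 0.05. A gene in a list is its brightest tested probe set with 1 symbol. Single values were also tested by exact permutation. The fit was tested on simulated data with known changes and independent noise on each array. That simulation held no shared deviation of same-numbered or of even-numbered arrays, so it does not check the fits under that pattern. Deviations from the group means correlated at 0.3413, 0.1892, 0.1986 and 0.3724 between same-numbered knockout and control arrays. Each is above 0.1, so samples of 1 number were treated as pairs, and the unpaired fit remained the main design. Knockout 3 with control 1 (0.1336), knockout 4 with control 2 (0.1487) and knockout 2 with control 4 (0.1166) were also above 0.1. Knockout 1 with control 3 was not (0.08417). For each knockout array the same-numbered control gave the highest value. This threshold thus does not fully separate pairing from the split of odd and even numbers. Members, 20 gene lists and tests were chosen with earlier results of these data known. From each related list were named the genes called in either fit and otherwise up to 3 with the largest size of difference. Aoc3 was named for groups that did not overlap. From marker lists, bright and dim genes were named after their values were seen. Alternatives were pseudocount, filter, scaling, trend, array weights, the replicate block, odd or even replicates alone, and leaving out arrays or pairs. Figures were drawn with matplotlib 3.10.9 in Python 3.11.15.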

Additional observations from a re-analysis of the deposited data

How the results depend on the processing

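In all 23 alternatives 0 member probe sets passed as higher and 0 as lower. The median log2 difference of the 8 genes was 0.0595, and between -0.0281 (without control 3) and 0.152 under the alternatives. Over the whole array the counts were 1 higher and 0 lower. The count of higher calls was 0 without a filter, with centring on medians and with no trend in eBayes, and 2 without control 1. With the replicate block 10 passed as higher and 3 as lower, with the replicate block in odd-numbered replicates alone 5 and 1, and in even-numbered ones 0 and 0. Leaving out single arrays or pairs gave 0 to 45 higher and 0 to 35 lower, the upper ends being the replicate block without pair 1; without pair 4 it gave 2 higher. The block changed no call of a member, and of the related lists it changed only that of Dlk1.

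Of 322 recomputed differences of member probe sets, 297 kept their direction and 25 did not. Those were of Pdgfra, Vcam1, Cd34 and Pdgfrb probe sets, and in 0 of them was the threshold passed. Pdgfra 1421916_at was -0.00188 with median centring and -0.0167 in even-numbered pairs. Pdgfra 1438946_at was 0.048 with array weights and 0.122 in even-numbered pairs. Pdgfra 1421917_at was 0.0117 and Vcam1 1448162_at -0.0678 in odd-numbered pairs, and Vcam1 1451314_a_at was -0.0865 in even-numbered pairs. With single arrays or pairs left out, Pdgfra 1421916_at ran from -0.101 to 0.121, 1438946_at from -0.203 to 0.174 and 1421917_at from -0.275 to 0.0186, Vcam1 1448162_at from -0.102 to 0.312, Cd34 from -0.0518 to 0.165 and Pdgfrb 1436970_a_at from -0.424 to 0.0643. With the replicate block, Pdgfra 1438946_at was 0.0846 without pair 1, Pdgfra 1421916_at was -0.014 without pair 2 and -0.00442 without pair 3, and Vcam1 1448162_at was -0.0351 and -0.0333 without the same pairs. The cause was not tested. Thy1, Anpep, Icam1, Eng (both probe sets), Pdgfrb 1417148_at and Vcam1 1415989_at kept their direction in the 23 alternatives. With 4 arrays a group the unpaired SE of 0.124 to 0.356 sets what could be seen. For signals below 73.1 on every array, such as those of 3 of the 4 Dpp4 probe sets, adding 73.1 pulls log2 differences towards 0. Such differences show neither a change nor its absence. With single arrays or pairs left out, the median log2 difference of 8 of the 11 related lists changed direction: Ly6 family from -0.115 to 0.256, adipogenesis regulatory cells from -0.251 to 0.0283, interstitial progenitors from -0.1 to 0.114, committed preadipocytes from -0.145 to 0.165, CD34 family from -0.156 to 0.0269, peptidases from -0.151 to 0.0253, NF-κB genes from -0.0752 to 0.0853 and other adhesion molecules from -0.00605 to 0.13.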
